A study of Mus musculus with 2 samples.

Results

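Genes of the endoplasmic reticulum (ER) were examined in poly(A) RNA of mammary epithelial cells (MECs) from lactating mice. The rule that sets the members uses gene function and no measured value, although the set was chosen with earlier results of these data known. It names 50 symbols that belong to 7 roles: chaperones of the ER lumen, oxidative folding, stress sensors with their transcription factors, ER-associated degradation, translocation, signal peptidase and oligosaccharyltransferase. The deposited files list 49 of the 50 symbols among 25810 genes. The symbol *Vimp* is not listed and was dropped by the rule; the gene is listed under the older symbol *H47*, at 21.8 RPM (WT) and 19.6 RPM (*Igfbp7*-/-), and was not counted.

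The 2 libraries came from lactation day 3 inguinal glands, 1 from wild type (WT) mice and 1 from mice that lack *Igfbp7*, which encodes a secreted insulin-like growth factor binding protein. The null allele is a germline deletion of exon 1, made with Cre recombinase in embryonic stem cells, so it is present in every cell type of the mouse. The labels give the background as C57BL/6 while the methods state CD1, and neither gives the age of the mice or how many animals were pooled in a library. In both groups lineage positive cells were removed with magnetic beads against CD45, Ter119 and CD31 (CD35 in the labels), which is meant to leave epithelial and other lineage negative cells. Reads on *Igfbp7* itself numbered 5224 for WT and 37 for the null library, the direction that the labels give.

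Levels are given as RPM, in which each count is divided by the library's total of mapped reads, or as RPM per kilobase of gene length (RPKM) where different genes are compared. Wherever a pair of values is given for a gene, the first is WT and the second *Igfbp7*-/-. The total of mapped reads was 34327854 in WT and 35016847 in *Igfbp7*-/-, so that 1 read was worth 0.0291 and 0.0286 RPM. Differences are log2 ratios of *Igfbp7*-/- to WT, computed on RPM after adding 0.1 RPM to both values, and were taken for every gene that reached 1 RPM in either library. A gene is called higher or lower when the ratio reached 1.5 times in that direction, the fold threshold of the study. The study also set a P value cutoff and a sequence quality cutoff, which were not applied here. With 1 library per genotype no difference has a replicate check, no test was possible, and the 95% Clopper-Pearson intervals in brackets cover the counting of read pairs only.

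The library as a whole differed widely between the genotypes. Reads on listed genes were 82.3% of mapped reads in WT and 72.3% in *Igfbp7*-/-. Luminal epithelial markers were higher in *Igfbp7*-/- (4 of 6, summed level 1144 and 2905 RPM), whereas myoepithelial markers (6 of 7 lower, 3085 and 976.5 RPM), fibroblast markers (4 of 6 lower, 9060 and 4582 RPM), endothelial markers (4 of 5 lower, 1055 and 352.3 RPM) and macrophage and dendritic cell markers (6 of 6 lower, 196.5 and 75.6 RPM) were lower. Among the luminal markers the ratio was largest for *Krt18* (250.4 and 1174 RPM). *Elf5* alone went the other way (137.3 and 95.9 RPM, log2 ratio -0.52), within 1.5 times. Of 4 adipocyte markers 3 were lower and *Lep* was higher (8.04 and 16.8 RPM), and their sum (562.0 and 192.3 RPM) was mostly *Fabp4* (543.5 and 173.4 RPM). None of these marker lists summed to 0 in either library, and their part in the differences below was not tested. In bulk RNA, fewer cells of a type and less RNA per cell cannot be told apart.

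The ER is where milk proteins are made, folded and glycosylated before secretion. A growing chain is threaded through the Sec61 channel, its signal peptide is cut off by signal peptidase and N-glycans are attached by oligosaccharyltransferase. Chaperones and disulfide isomerases then fold the chain, and chains that fail are sent back to the cytosol for degradation. When unfolded protein accumulates, the sensors IRE1, ATF6 and PERK start the unfolded protein response, which raises transcription of chaperone genes and, through PERK, slows protein synthesis. The secretory alveolar cell of lactation is a classic setting for this machinery.

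Of the 49 listed ER genes, 47 passed the minimum, and all 47 had at least 1 RPM in both libraries. Of these, 37 (78.7%) stayed within 1.5 times between the genotypes, 9 were lower in *Igfbp7*-/- MECs (19.1%) and 1 was higher (2.13%). Among all 14026 genes past the minimum, 23.0% were lower, 21.4% were higher and 44.5% were called in either direction. The share of ER genes called lower lay near that of all genes and the share called higher lay under it, a description for which no test was possible. Among the 45 ER genes that reached 10 RPM in either library, 8 were lower and 1 was higher, against 20.4% lower and 20.7% higher among all 8201 such genes (41.1% in either direction).

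**Figure D1:**
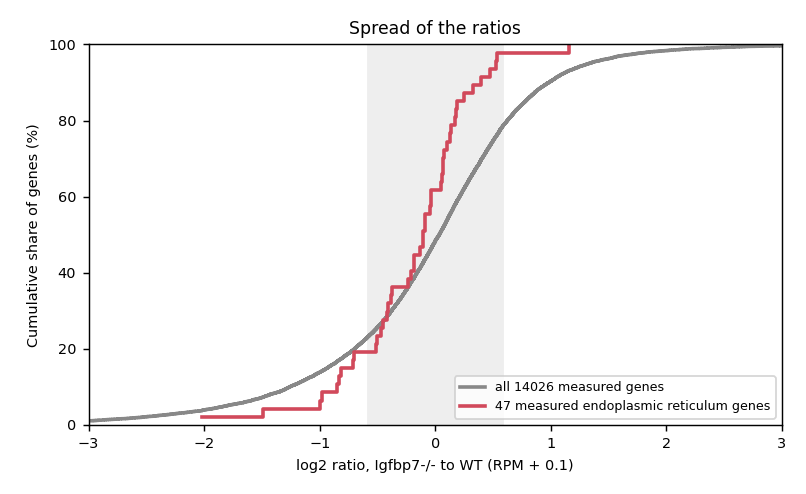
Cumulative share of genes (y axis, percent) against the log2 ratio of *Igfbp7*-/- to WT (x axis) for all 14026 measured genes (grey) and the 47 measured ER genes (red), with the range within 1.5 times shaded. Of the 47 ER genes, 9 lie to the left of the shaded range, 37 inside it and 1 to its right.

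The median log2 ratio of the 47 genes was -0.11 and that of all genes was 0.03, a gap of -0.14. The sign of the first value depends on scaling. Relative to reads on listed genes, in place of all mapped reads, the median of the ER genes became 0.08 and that of all genes 0.22. The gap stayed at -0.14 by construction, since a scaling shifts both medians nearly alike, so this is no check of the gap. On that scale 5 ER genes were called higher (*Eif2ak3*, *Pdia4*, *Hyou1*, *Creld2* and *Sel1l*) and 7 lower, and 30.2% of all genes were higher and 18.4% lower. In RPM the listed ER genes summed to 5711 in WT and 5471 in *Igfbp7*-/-, a fold of 0.958.

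The main secretory products moved much further. All 7 casein and whey protein genes were lower in *Igfbp7*-/- MECs, with summed levels of 123702 and 47165 RPM, and had a median log2 ratio of -1.38. Set against these transcripts within the same library, which needs no scaling between libraries, the ER genes stood at 4.62 reads per 100 casein and whey reads in WT and at 11.6 in *Igfbp7*-/-, 2.51 times as many. By role this fold ran from 1.96 for signal peptidase to 3.09 for the sensors and transcription factors. The ER sum itself was nearly even between the libraries (fold 0.958). The fold of 2.51 therefore came from the lower casein and whey sum (fold 0.381) and is not particular to ER genes. Any set with a nearly even sum, such as vesicle and Golgi trafficking genes (fold 0.993), would rise likewise against that sum.

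The ER lumen chaperones and co-chaperones had the largest summed level of the roles (2399 and 2504 RPM). None of the 11 was called in either direction, beside 44.5% of all genes. *Hspa5*, which encodes BiP, the central Hsp70 of the ER lumen, had 38945 and 45156 reads (1135 and 1290 RPM; log2 ratio 0.18, 0.16 to 0.21). At 433.7 and 492.9 RPKM it had the highest level per length of all members in both libraries and ranked 74 and 66 among all genes. *Hsp90b1*, the ER Hsp90 GRP94, had 378.7 and 415.4 RPM, a log2 ratio of 0.13 (0.08 to 0.18).

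The lectin chaperones, which hold glycoproteins that carry monoglucosylated N-glycans, went slightly the other way. Calreticulin (*Calr*) had 236.0 and 172.8 RPM (log2 ratio -0.45, -0.52 to -0.38), and calnexin (*Canx*) had 369.8 and 319.5 RPM (-0.21, -0.26 to -0.16). Within a library, there were 4.81 *Hspa5* reads per *Calr* read in WT and 7.46 in *Igfbp7*-/-, a fold of 1.55.

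*Hyou1*, an Hsp110-type nucleotide exchange factor for BiP, had 55.6 and 80.5 RPM (log2 ratio 0.53, 0.41 to 0.66), just inside the threshold. *Creld2*, a stress-inducible protein of the ER lumen, had 8.74 and 12.2 RPM (0.48, 0.17 to 0.79). The J-domain co-chaperones that hand clients to BiP were close to even: *Dnajb9* had 93.1 and 100 RPM, *Dnajc3* 65.7 and 61.7 RPM and *Dnajb11* 13.3 and 13 RPM. *Manf*, a secreted ER stress protein, had 36.8 and 34.2 RPM, and *Sdf2l1*, a partner of the DNAJB cochaperones, had 6.53 and 4.97 RPM. The 11 genes spanned log2 ratios from -0.45 to 0.53, with 6 below 0 and 5 above.

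**Figure D2:**
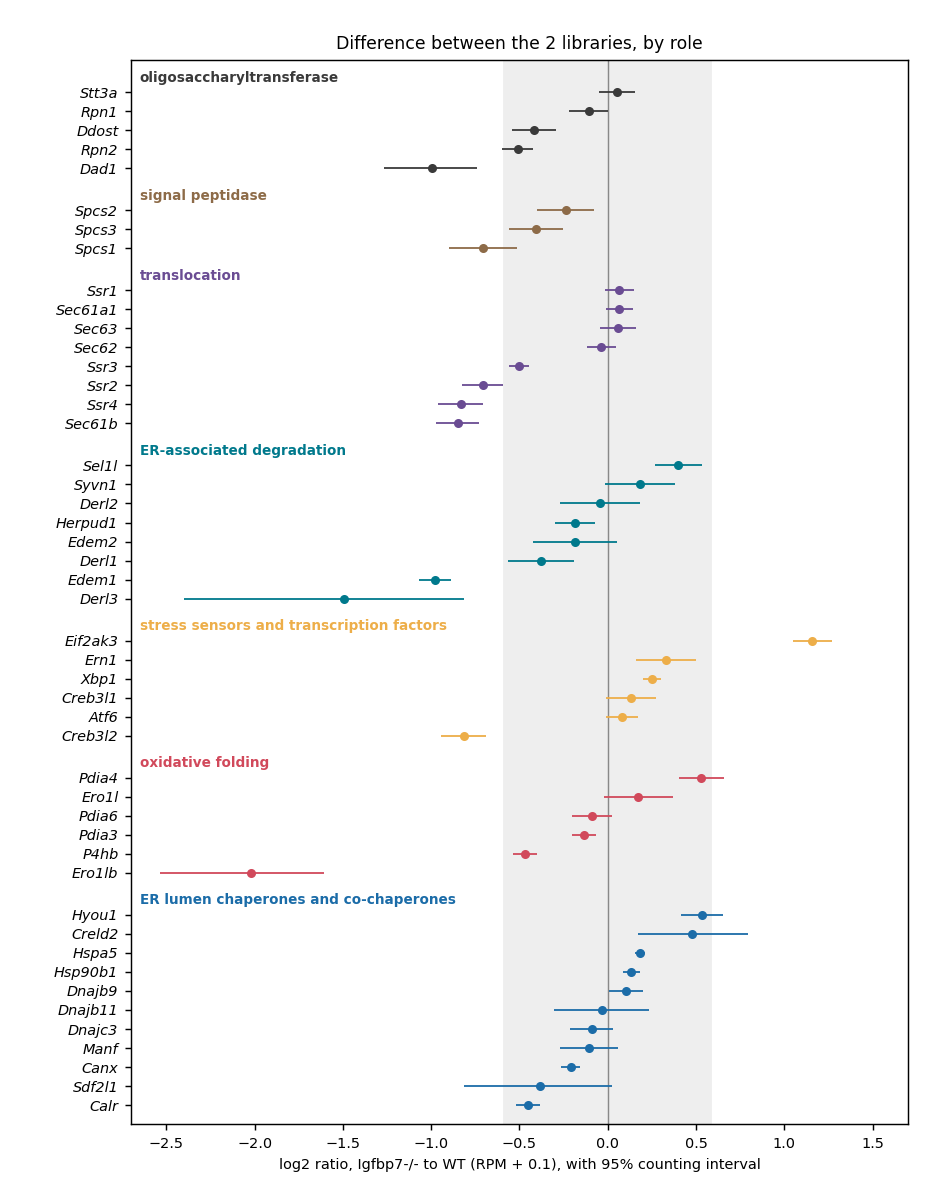
Log2 ratio of *Igfbp7*-/- to WT (x axis) for the 47 measured ER genes (y axis, grouped by role), with bars for the 95% counting interval of the read pairs and shading for the range within 1.5 times. All 11 chaperones lie in the shaded range, 9 genes lie to its left and *Eif2ak3* alone lies to its right.

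Many chaperone genes carry an ER stress response element (ERSE) in the promoter, the sequence CCAAT, then any 9 bases, then CCACG, which is bound by NF-Y together with ATF6 or XBP1. Promoter sequences of RefSeq (build GRCm38.p6, 250 bases before to 50 after the start) were found for 40 of the 49 listed ER genes. An ERSE on either strand was present in 10 of these 40 (25%), whereas 37 of the 27025 genes in the table (0.137%) had one. Since the element is known from chaperone genes, a higher share in this set could be foreseen and is no result of these data. The related ERSE-II (ATTGG, any base, CCACG) was in 2 of the 40, *Dnajb11* and *Herpud1*, and in 0.0444% of all genes, and the element TGACGTGG was in none of the 40 and in 0.714% of all genes. The stretches with an ERSE are shown because 6 of the 9 chaperone promoters hold one, with the CCAAT and CCACG parts in capitals, 5 bases on each side, and each read 5′ to 3′ on the strand of the motif.
Hspa5, chr2:34772020-34772048, plus strand: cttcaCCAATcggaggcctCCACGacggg
Hsp90b1, chr10:86705633-86705661, minus strand: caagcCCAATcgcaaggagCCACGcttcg
Hsp90b1, chr10:86705528-86705556, plus strand: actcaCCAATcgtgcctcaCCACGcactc
Calr, chr8:84847070-84847098, plus strand: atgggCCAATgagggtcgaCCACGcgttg
Canx, chr11:50325795-50325823, minus strand: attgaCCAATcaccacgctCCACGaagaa
Pdia6, chr12:17266486-17266514, plus strand: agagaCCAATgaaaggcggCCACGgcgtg
Dnajc3, chr14:118937822-118937850, plus strand: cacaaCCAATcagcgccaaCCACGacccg
Creld2, chr15:88819515-88819543, minus strand: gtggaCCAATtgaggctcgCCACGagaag
Syvn1, chr19:6046527-6046555, plus strand: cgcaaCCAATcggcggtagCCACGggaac
Derl3, chr10:75893237-75893265, minus strand: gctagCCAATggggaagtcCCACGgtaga
Ero1lb, chr13:12565677-12565705, minus strand: ggcggCCAATgaggcgggaCCACGaggcc

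The first base of the motif lay between 44 bases (*Syvn1*) and 212 bases (the first *Hsp90b1* copy) before the annotated start. By role, an ERSE was found in 6 of 9 chaperone promoters, 2 of 6 of oxidative folding and 2 of 7 of ER-associated degradation. It was in 0 of 4 of sensors and transcription factors, 0 of 7 of translocation, 0 of 2 of signal peptidase and 0 of 5 of oligosaccharyltransferase. With any base allowed at the end of the motif, a form searched after the first result was seen, the count was 14 of 40 (0.429% of all genes), the additions being *Pdia3*, *Pdia4*, *Herpud1* and *Derl2*.

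The 10 genes with an ERSE did not move as a block. Their median log2 ratio was -0.09, and 8 of the 10 stayed within 1.5 times, from -0.45 for *Calr* to 0.48 for *Creld2*. The other 2, *Derl3* and *Ero1lb*, were the lowest of all measured members. Among the 29 measured members with a promoter sequence and no ERSE, 6 were lower, 1 was higher and the median was -0.14.

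Oxidative folding, the making and shuffling of disulfide bonds, held 6 members, of which 5 stayed within 1.5 times (83.3%, beside 55.5% of all genes). *P4hb*, the abundant protein disulfide isomerase, had 233.2 and 168.4 RPM (log2 ratio -0.47, -0.54 to -0.40). *Pdia3*, the isomerase that works with calnexin and calreticulin, had 84.5 and 77.0 RPKM and the highest mean level per length of this role (7714 and 7168 reads, 224.7 and 204.7 RPM; -0.13, -0.20 to -0.07). *Pdia4*, the isomerase ERp72, had 49.3 and 71.3 RPM (0.53, 0.40 to 0.66), and the number of its reads per *P4hb* read was 0.212 in WT and 0.423 in *Igfbp7*-/-. *Pdia6* had 76.6 and 72.1 RPM.

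The 2 ER oxidases, which pass electrons from the isomerases to oxygen, differed from each other. *Ero1lb* (chr13:12658150-12701793 in NCBIM37, plus strand), the form best known from secretory cells of the pancreas, had 409 and 100 reads (11.9 and 2.86 RPM; log2 ratio -2.02, -2.54 to -1.61) and the lowest of the measured members. *Ero1l*, the widely expressed form, had 824 and 948 reads (24.0 and 27.1 RPM; 0.17, -0.02 to 0.37). Per *Ero1l* read there were 0.496 *Ero1lb* reads in WT and 0.105 in *Igfbp7*-/-, 4.71 times fewer.

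Among the sensors and transcription factors, *Eif2ak3* was the only ER gene called higher. It encodes PERK, the kinase that phosphorylates eIF2α when the ER is stressed (chr6:70794509-70855239 in NCBIM37, plus strand). It had 1952 and 4450 reads (56.9 and 127.1 RPM; log2 ratio 1.16, 1.05 to 1.27). The other sensors had ratios nearer to 1. *Ern1* (IRE1α), which splices *Xbp1* mRNA, had 30.0 and 37.7 RPM (0.33, 0.16 to 0.50), and *Atf6*, whose cleaved form is a transcription factor, had 110.8 and 117.1 RPM (0.08, -0.01 to 0.17). In reads within a library, *Eif2ak3* stood at 0.513 per *Atf6* read in WT and at 1.08 in *Igfbp7*-/-. *Ern2* (IRE1β), known from gut and airway epithelium, had 0 reads in both libraries, a count that allows levels up to 0.175 and 0.171 RPM (3 read pairs, or 6 reads, each; counting error only).

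*Xbp1*, the transcription factor activated by IRE1, had the second highest level per length of all members, 182.6 and 217.6 RPKM (11390 and 13845 reads, 331.8 and 395.4 RPM; log2 ratio 0.25, 0.20 to 0.30). The counts are per gene, so spliced and unspliced *Xbp1* are not separated. *Creb3l1* and *Creb3l2* encode a pair of membrane-bound factors that promote genes of the secretory pathway, and they differed. *Creb3l2* (chr6:37277255-37392146 in NCBIM37, minus strand) had 2776 and 1606 reads (80.9 and 45.9 RPM; -0.82, -0.94 to -0.69). *Creb3l1* had 45.3 and 49.5 RPM (0.13, -0.01 to 0.27). There were 1.79 *Creb3l2* reads per *Creb3l1* read in WT and 0.926 in *Igfbp7*-/-. In deposited RPKM *Creb3l2* had 24.4 and 13.8 and *Creb3l1* had 19.8 and 21.7. The order of the pair depends on the lengths used: for *Creb3l2* the deposited length is 3318 bases and the GENCODE coding transcript 7082.

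**Figure D3:**
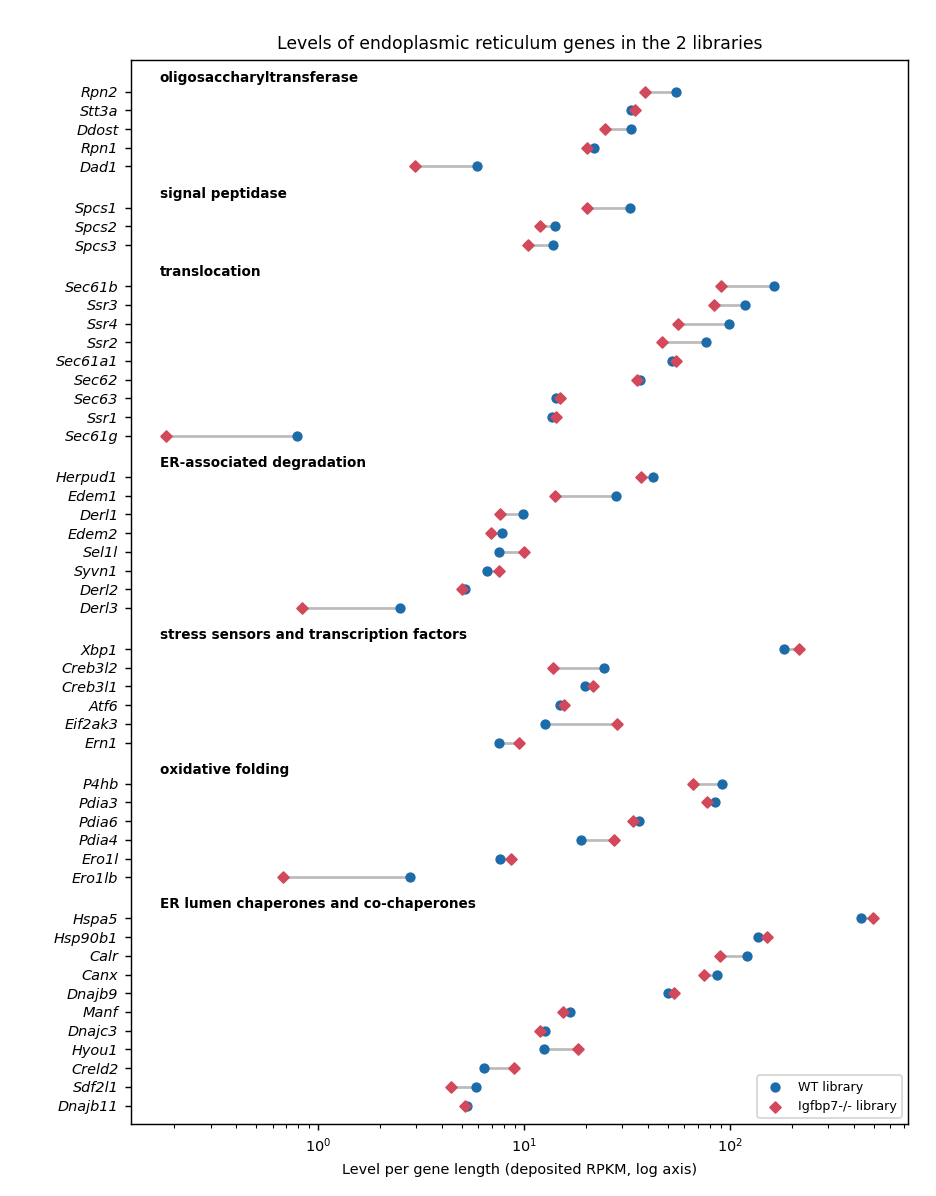
Deposited RPKM (x axis, log scale) of the 48 listed ER genes with reads (y axis, grouped by role) in the WT library (blue circles) and the *Igfbp7*-/- library (red diamonds). *Hspa5* has the highest level in both, and the widest gaps are those of *Sec61g*, *Ero1lb*, *Derl3* and *Eif2ak3*.

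ER-associated degradation draws misfolded chains back into the cytosol, where the proteasome breaks them down. Of the 8 listed genes, 6 stayed within 1.5 times and 2 were lower. *Edem1*, a mannosidase-like protein that promotes this route (chr6:108778635-108809350 in NCBIM37, plus strand), had 5601 and 2901 reads (163.2 and 82.8 RPM; log2 ratio -0.98, -1.07 to -0.89). Its relative *Edem2* had 18 and 15.8 RPM (-0.19, -0.43 to 0.05).

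The derlins are membrane proteins of the exit channel. *Derl3* (chr10:75356143-75358686 in NCBIM37, plus strand) had 114 and 39 reads (3.32 and 1.11 RPM; log2 ratio -1.49, -2.40 to -0.81), at low levels throughout. *Derl1* had 31.2 and 24.0 RPM (-0.38, -0.56 to -0.19) and *Derl2* had 18.6 and 18.1 RPM. Plasma cells, which secrete antibody, are another secretory cell type of this tissue. Of 5 plasma cell markers past the minimum 3 were lower, with a summed level of 137.7 and 86.9 RPM over 6 listed. Those lower were *Igj*, the antibody joining chain (27.7 and 2.17 RPM), *Pou2af1* (4.08 and 1.31 RPM) and *Cd79a* (2.56 and 0.485 RPM). *Sdc1*, which made up most of the sum, had 91.9 and 69.5 RPM and *Irf4* had 11.4 and 13.5 RPM, both within 1.5 times, and *Tnfrsf17* had 2 and 0 reads. The CD45 beads are meant to remove cells of the leukocyte lineage. The markers' part in the lower *Derl3* count was not tested.

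The ubiquitin ligase of this route and its adaptor had ratios above 1: *Syvn1*, which encodes the ligase HRD1, had 23.0 and 26.1 RPM (log2 ratio 0.18, -0.02 to 0.38) and *Sel1l* had 47.5 and 62.7 RPM (0.40, 0.27 to 0.53). *Herpud1*, which ties the ligase to its substrates and had the highest level per length of this role, had 2704 and 2427 reads (78.8 and 69.3 RPM; -0.18, -0.30 to -0.07).

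In the translocation machinery, subunits of the same complex differed. Of 8 measured genes 3 were lower (37.5%) and none was higher, beside 23.0% and 21.4% of all genes. *Sec61a1*, the channel itself, had 158.9 and 166.4 RPM (log2 ratio 0.07, -0.01 to 0.14). *Sec61b*, a small tail-anchored subunit of the channel (chr4:47487530-47496114 in NCBIM37, plus strand), had 3100 and 1751 reads (90.3 and 50 RPM; -0.85, -0.97 to -0.73). For every *Sec61a1* read there were 0.568 *Sec61b* reads in WT and 0.300 in *Igfbp7*-/-. The third subunit, *Sec61g*, had 21 and 5 reads (0.612 and 0.143 RPM), below the minimum. *Sec62* (144.6 and 140.9 RPM) and *Sec63* (86.6 and 90.2 RPM), which assist post-translational entry and connect the channel to BiP, were close to even.

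The translocon-associated protein complex (TRAP) has 4 subunits that sit beside the channel and assist the entry of some chains. *Ssr1* had 127.0 and 133.0 RPM (log2 ratio 0.07, -0.02 to 0.15), *Ssr3* had 341.4 and 240.9 RPM (-0.50, -0.56 to -0.45), and the remaining subunits were called lower. *Ssr2* (chr3:88383593-88392319 in NCBIM37, plus strand) had 3122 and 1948 reads (90.9 and 55.6 RPM; -0.71, -0.83 to -0.59). *Ssr4* (chrX:71032367-71036169, plus strand) had 2792 and 1600 reads (81.3 and 45.7 RPM; -0.83, -0.96 to -0.71). Per *Ssr1* read, *Ssr2* stood at 0.716 in WT and 0.418 in *Igfbp7*-/-, *Ssr3* at 2.69 and 1.81, and *Ssr4* at 0.640 and 0.343.

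The 3 *Spcs* members of signal peptidase were all below a ratio of 1. *Spcs1* (chr14:31813012-31814858 in NCBIM37, minus strand) had 1149 and 718 reads (33.5 and 20.5 RPM; log2 ratio -0.70, -0.90 to -0.51) and was called lower. *Spcs2* had 39.6 and 33.6 RPM (-0.24, -0.40 to -0.08) and *Spcs3* had 48 and 36.2 RPM (-0.41, -0.56 to -0.26). The enzyme's alternative catalytic subunits, named here after their values were seen, had *Sec11c* at 15 and 7.97 RPM (-0.91) and *Sec11a* at 28.5 and 39.6 RPM (0.47).

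In oligosaccharyltransferase, the catalytic subunit *Stt3a* had 89.5 and 92.8 RPM (log2 ratio 0.05, -0.05 to 0.16) and *Rpn1* had 79.6 and 73.9 RPM (-0.11, -0.22 to 0.00). *Rpn2*, with the highest level per length of this complex, had 5123 and 3667 reads (149.2 and 104.7 RPM; -0.51, -0.60 to -0.42), and *Ddost* had 70.8 and 53.0 RPM (-0.42, -0.54 to -0.29). *Dad1*, a small subunit named for its defence against apoptotic death (chr14:54855154-54873779 in NCBIM37, minus strand), was called lower, with 713 and 363 reads (20.8 and 10.4 RPM; -0.996, -1.27 to -0.74). For each *Stt3a* read there were 0.232 *Dad1* reads in WT and 0.112 in *Igfbp7*-/-. The deposited RPKM of *Dad1*, 5.92 and 2.96, rests on a length of 3506 bases, while the GENCODE annotation of NCBIM37 lists coding transcripts of 878 and 3491 bases, so its level against other subunits depends on which is used.

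The ratios are set beside gene length here as a description only. *Rpn2* and *Stt3a* had nearly the same length (2716 and 2697 bases) and log2 ratios of -0.51 and 0.05. Among the short genes, *Creld2* (1364 bases) and *Sdf2l1* (1118 bases) were not called, at 0.48 and -0.39. Of the 7 measured ER genes with a length of up to 1500 bases in the deposited RPKM, 5 were lower (*Sec61b*, *Ssr2*, *Ssr4*, *Spcs1* and *Derl3*), with a median log2 ratio of -0.71. Among all 2646 measured genes of that length 27.4% were lower and the median was -0.15, and among all 2980 genes over 4500 bases 19.4% were lower and the median was 0.18. After ratios were centred on the median of genes of the same length class, *Ssr2* (-0.56) and *Spcs1* (-0.56) were no longer past 1.5 times, and *Sec61b* (-0.70), *Ssr4* (-0.68) and *Derl3* (-1.35) were. None of the 19 members over 1500 and up to 3000 bases was called, and *Creb3l2*, *Ero1lb* and *Edem1* are longer and were lower. These classes rest on the deposited lengths, which differ from GENCODE coding transcripts for some members. For example, *Spcs2* has a deposited length of 2815 bases and a coding transcript of 1391, and *Creb3l2* has 3318 and 7082. *Dad1* also falls among the longer genes by its deposited length, though not by its shorter annotated transcript of 878 bases. The part of gene length in the lower counts of the small subunits was not tested.

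**Figure D4:**
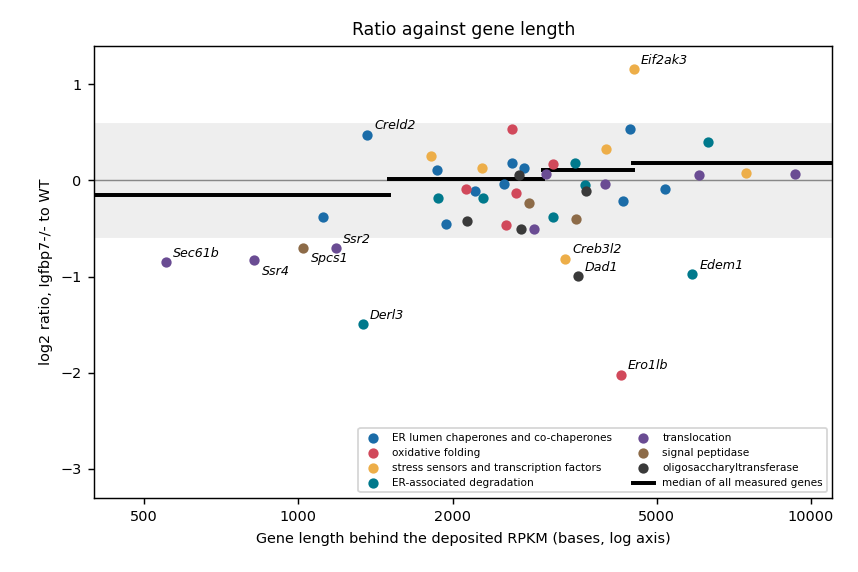
Log2 ratio of *Igfbp7*-/- to WT (y axis) against the gene length used for the deposited RPKM (x axis, bases, log scale) for the 47 measured ER genes, coloured by role, with black lines for the median of all measured genes in each of 4 length classes. The black lines climb from -0.15 to 0.18, and 5 of the 7 shortest ER genes lie below the shaded range.

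Other genes of the same pathways were described from lists set by function. Of 36 measured further ER folding genes, 6 were lower (16.7%) and 3 were higher (8.33%), beside 23.0% and 21.4% of all genes, with a median log2 ratio of -0.15. The largest difference was that of *Fkbp11*, a membrane-bound prolyl isomerase of secretory cells, with 2339 and 330 reads (68.1 and 9.42 RPM; -2.84, -3.10 to -2.62), beyond that of any of the 47 genes above. *Prdx4*, a peroxiredoxin of the ER that also feeds oxidative folding, had 41.3 and 18.1 RPM (-1.18). *Fkbp10*, a collagen chaperone, had 24.1 and 13 RPM (-0.89), and the J-domain protein *Dnajb12* had 12.8 and 21.3 RPM (0.73). The lower plasma cell markers stood beside *Fkbp11* and the lower fibroblast markers beside *Fkbp10*, and their part in these differences was not tested.

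Of 28 measured further genes of ER-associated degradation, 6 were higher (21.4%, the same share as among all genes) and 2 were lower (7.14%, beside 23.0% of all genes), with a median of 0.04. The ubiquitin-conjugating enzyme *Ube2j1* had 69.0 and 122.4 RPM (log2 ratio 0.83, 0.72 to 0.93), the deubiquitinase *Yod1* 11.8 and 21.5 RPM (0.86) and the ligase *Tmem129* 12.5 and 21.4 RPM (0.78). The mannosidase *Man1a* had 109.7 and 52.6 RPM (-1.06, -1.18 to -0.95) and was called lower. Among 24 further translocation and glycosylation genes 3 were higher and 3 were lower (12.5% each, median 0.05). These included *Sec11c* (above), *Magt1*, an oxidoreductase subunit of oligosaccharyltransferase, with 66.0 and 110.1 RPM (0.74), and *Srp14* of the signal recognition particle, with 24.4 and 15.7 RPM (-0.63). *Srprb*, a subunit of its receptor, had 11.4 and 7.34 RPM (-0.63).

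Among 24 further stress response genes, 6 were higher (25%, near the 21.4% of all genes) and 1 was lower (4.17%, beside 23.0%), with a median log2 ratio of 0.27 beside 0.03 over all genes. *Trib3*, a pseudokinase induced by the PERK branch, had 607 and 1646 reads (17.7 and 47 RPM; 1.41, 1.22 to 1.60). *Chac1*, a glutathione-degrading enzyme of the same branch, had 603 and 1255 reads (17.6 and 35.8 RPM; 1.02, 0.83 to 1.23). The central factor of that branch, *Atf4*, had 598.5 and 797.8 RPM (0.41, 0.38 to 0.45), and *Ddit3*, which encodes CHOP, had 15.3 and 19.1 RPM (0.32, 0.08 to 0.56), both within 1.5 times. These last 2 were named after their values were seen, as were *Ppp1r15a* (0.11) and *Asns* (0.23) of the same list, also within 1.5 times. The part of PERK in any of these differences was not tested. *Nfya*, a subunit of the factor that binds CCAAT, had 24.3 and 42.4 RPM (0.80), *Nfyb*, the one gene of the list called lower and named for that, had 19.6 and 13 RPM (-0.59), and *Mbtps1*, the protease that starts the cleavage of ATF6, had 46.1 and 75.8 RPM (0.72).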

How the data were processed

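Lineage-depleted MECs of lactation day 3 were profiled in 2 libraries, 1 per genotype, taken from the labels. The authors sequenced 35 and 75 bp paired ends on a SOLiD instrument, removed mitochondrial, ribosomal and small nuclear RNA and mapped with a Bowtie pipeline, at most 3 mismatches. The methods name a human reference, whereas the submitters' processing notes name mm9, Bowtie 0.12.3 and SAMtools 0.1.15, and the deposited genes are of the mouse. Annotation and the treatment of multiply mapped reads were not given in the sources used here.

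The authors deposited an unnormalized read count per gene, the RPM (the count scaled to mapped reads) and the RPKM (RPM per kilobase). Because RPM is a share of mapped reads, a fall in abundant transcripts raises other genes only where the freed share falls on them. Here the casein and whey sum was lower in *Igfbp7*-/- (123702 and 47165 RPM). The sum over all listed genes was lower as well (823297 and 722705 RPM). 18S and 28S ribosomal RNA still took 2.95% of mapped reads in WT and 3.15% in *Igfbp7*-/-. The 50 rows without a symbol held 0.0408% and 0.0484% of mapped reads and were left out.

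Ratios were computed from RPM with a pseudocount of 0.1. Intervals used counts divided by 2, as 75.8% and 74.1% of counts from 1 to 20 were even. Ratio, call and interval were tested on simulated read pairs. These were drawn from the counting model that the intervals assume, so this checked the computation only and not the variation between animals. edgeR's quasi-likelihood test needs replicates and was not run; edgeR 4.0.16 and DESeq2 1.42.0 gave scaling factors only. Coordinates are from GENCODE on NCBIM37, the same assembly as mm9, and all 49 genes had the chromosome given in the files. Python 3.11.15, numpy 2.4.6, scipy 1.17.1 and pandas 2.3.3 were used.

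The members and lists were chosen with earlier results of these data known. Reads and RPM are given for every called member of at least 10 RPM (and for *Derl3*, below it), for the member of highest mean RPKM in each role, and for other members by value or range, and from each further list for up to 4 genes with at least 10 RPM and the ratios furthest from 1. Where no gene of a role was called, its highest and lowest ratios are given. Alternatives were other pseudocounts (1 and 0.01 RPM), RPKM, no minimum, minimums of 10 RPM in 1 library or 1 RPM in both, 5 other scalings (centring on the median, reads on listed genes, TMM, DESeq2 size factors, and listed reads without the 20 most abundant genes) and a threshold of 2 times. After the data were seen, scaling without ribosomal and small nuclear RNA and centring by length class were added. Amino acid sequences were not used here.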

Additional observations from a re-analysis of the deposited data

How the results depend on the processing

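Of the 14 alternatives, 4 moved a count or the median beyond its range. Scaled to the reads on listed genes, 5 members were higher and their median log2 ratio was 0.081; without ribosomal and small nuclear RNA these values were 5 and 0.092. With centring by length class 2 members were higher, the second being *Creld2*. With a threshold of 2 times, 2 members were lower (*Derl3* and *Ero1lb*). *Eif2ak3* stayed past 1.5 times under all alternatives (log2 ratio 0.98 to 1.36), as did *Ero1lb* (-2.13 to -1.74). *Ssr2* and *Spcs1* lost their calls under both scalings to listed reads, under length centring and at 2 times. No called member changed sign. No replicate could be left out, and no paired analysis was possible because each genotype had 1 library. Depth limits what can be said of *Ern2*, *Sec61g* and *Derl3*, with 0, 5 and 39 reads in *Igfbp7*-/- cells, and the variation between animals was not measured.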

Other observations

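Further along the secretory route, 52 genes of COPII and COPI vesicles and of the Golgi had a median log2 ratio of 0.01, with 5 higher and 5 lower in *Igfbp7*-/- MECs (9.62% each, beside 21.4% and 23.0% of all genes) and summed to 3732 RPM (WT) and 3706 RPM (*Igfbp7*-/-). Pairs of values are in this order. The golgin *Golga2* had 19.0 and 39.6 RPM (log2 ratio 1.05), the COPII cargo adaptor *Sec24a* 49.7 and 93 RPM (0.90) and the COPII scaffold *Sec16b* 11.9 and 20.4 RPM (0.77). The COPI subunit *Copz1* had 81.6 and 45.5 RPM (-0.84), while the COPI subunit *Copa*, named after its values were seen, had 176.6 and 223.0 RPM (0.34).

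Of 31 cytosolic chaperone genes 28 (90.3%) stayed within 1.5 times, beside 55.5% of all genes and 58.9% of those with 10 RPM or more in either library, a description with no test. Their median log2 ratio was -0.10, and they summed to 12101 and 13046 RPM. The heat shock genes *Hspa1a* (896.6 and 1580 RPM; 0.82) and *Hspa1b* (1212 and 1972 RPM; 0.70) were higher, with the limit that they are near-identical copies whose reads may be shared, and the small heat shock gene *Hspb1* was lower (292.2 and 194.2 RPM; -0.59). *Cct7*, a subunit of the cytosolic chaperonin, had 143.7 and 99.8 RPM (-0.53). Of 15 genes for mitochondrial chaperones and proteases, 14 (93.3%) stayed within 1.5 times (median 0.15), and *Grpel2*, a nucleotide exchange factor, had 51.6 and 99.0 RPM (0.94). The co-chaperonin *Hspe1* had 99.2 and 73.8 RPM (-0.43), the J-domain protein *Dnaja3* 20.3 and 26.7 RPM (0.40) and the protease *Spg7* 16 and 20.8 RPM (0.38).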
